A study of Nymphaea colorata and Nymphaea micrantha with 16 samples.

Results

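A set of 5 genes at the entry of the phenylpropanoid and monolignol pathway were followed through leaf development in a viviparous and a nonviviparous water lily. They are 2 genes for phenylalanine ammonia lyase (*PAL*, NC1G0105340 and NC4G0237070), 1 for shikimate hydroxycinnamoyltransferase (*HCT*, NC3G0226660), 1 for the cytochrome P450 *CYP98A3* (NC1G0182570) and 1 for cinnamoyl-CoA reductase (*CCR*, NC3G0225220). Their names and IDs are those of the study, and they are 5 of the 31475 genes in the deposited table. The study picked them from genes that it had called between the species on these same samples, so a call reported here is not independent evidence. The paper states that *PAL* was upregulated in the nonviviparous species. It lists 1 *HCT* gene as downregulated, naming no species there, beside chalcone synthase genes that its discussion gives as lower in the nonviviparous species. In the values here, both *PAL* genes averaged higher in the viviparous species over the 4 stages, the reverse of that statement. *HCT* averaged lower in the viviparous species and higher in the nonviviparous one. That is also the reverse, if the paper's direction for *HCT* refers to the nonviviparous species. The reason for these differences was not tested.

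The leaves came from wild-type *N. micrantha* (X-species, viviparous) and wild-type *N. colorata* (L-species, nonviviparous). Leaves of stages 1 and 2 had not opened or met the air and were told apart by size (1 to 2 cm against 4 to 6 cm). At stage 3 the tip had met the surface and the blade was opening, and at stage 4 it lay open, with the mark of vivipary plain in X-species. Each of the 8 groups (L1 to L4 and X1 to X4) had 2 libraries of poly(A) RNA, each from leaves of 6 plants pooled. The study selected 6 plants of each species, and whether different pools came from different plants is not stated. The study describes container-grown plants and 3 biological repeats, of which 2 were analysed here. In pooled leaf RNA, fewer cells of a type and less RNA per cell cannot be told apart.

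In plants, *PAL* removes ammonia from phenylalanine and so feeds carbon into cinnamic acid, the start of lignin, flavonoids and many soluble phenolics. *HCT* joins p-coumaroyl-CoA to shikimate, and the enzyme named CYP98A3 in *Arabidopsis* hydroxylates the ring of that ester on the way to caffeoyl units. *CCR* then reduces the CoA esters to aldehydes, which commits them to monolignols, the building blocks of lignin. The same early steps serve cell wall stiffening, pigments and defence compounds in leaves.

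Expression is given as FPKM (counted fragments per length of gene and per library total). The FPKM values were whole reads divided by length and library total, so the reads behind each value were recovered; 1 read here is 1 counted fragment. Between 37118842 and 51396582 reads per library were counted on genes in L-species and between 24815135 and 31440253 in X-species. All 5 genes were among the 18160 tested (FPKM of at least 1 in 2 or more libraries). A gene was called where limma, on log2(FPKM + 1) and adjusted over all genes tested, gave an adjusted p below 0.05 with a log2 fold change of 1 or more in size. Fold changes are X over L, or later over earlier stage. Of the 9 leaf genes checked (RuBP carboxylase, an antenna protein and oxygen-evolving complex genes), 8 had FPKM of at least 1 in every L library and 5 in every X library, 2 were at 0 in all X libraries, and the most abundant (NC7G0247280) ranged from 1282 to 39955 FPKM. The X2 libraries differed most from each other (SD of the log2 difference between replicates 0.631, against 0.244 to 0.528 in the other groups). Whether reads of both species match these gene models equally was not tested. In the table, 302 genes had FPKM of at least 1 in all 8 L libraries and 0 in all 8 X libraries, and 20 genes showed the opposite.

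At stage 1, 2 of the 5 genes were called between the species, where 28.0% of all tested genes were called. The count was 3 of 5 at stage 2 (25.3% of all genes), 4 of 5 at stage 3 (28.8%) and 5 of 5 at stage 4 (31.3%). At stage 4 both *PAL* genes and *CYP98A3* were higher in X-species, and *HCT* and *CCR* were lower. NC1G0105340 was called higher in X-species at each of the 4 stages, as were 2.21% of all tested genes. NC3G0226660 was called lower at each, as were 9.22%. The other 3 genes were called at 1 to 3 stages. Over genes detected in both species NC1G0105340 and NC3G0226660 drop out, and 0, 1, 2 and 3 members were called at stages 1 to 4. That filter kept fewer genes, and 3284, 2895, 3474 and 3791 of those kept were called. Their share of the genes kept was not computed, so these member counts have no share to be set against. Over all tested genes, the log2 fold changes had medians of −0.23, −0.18, −0.30 and 0.00 for stages 1 to 4. Median-ratio scaling of the libraries shifted these medians by 0.16, 0.14, 0.22 and −0.01, and under it 1 call on the 5 genes was lost, that of *CCR* at stage 3. Averaged over the 4 stages, 3 of 5 genes were called (24.1% of all genes), *PAL* NC1G0105340 with 2.46 ± 0.10 (SE), *PAL* NC4G0237070 with 1.07 ± 0.20 and *HCT* with −3.18 ± 0.13, while *CYP98A3* gave −0.31 and *CCR* −0.55. The average for NC4G0237070 fell under the fold threshold without L2 replicate 2 (0.94), X2 replicate 2 (0.91) or X4 replicate 2 (0.96).

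**Figure D1:**
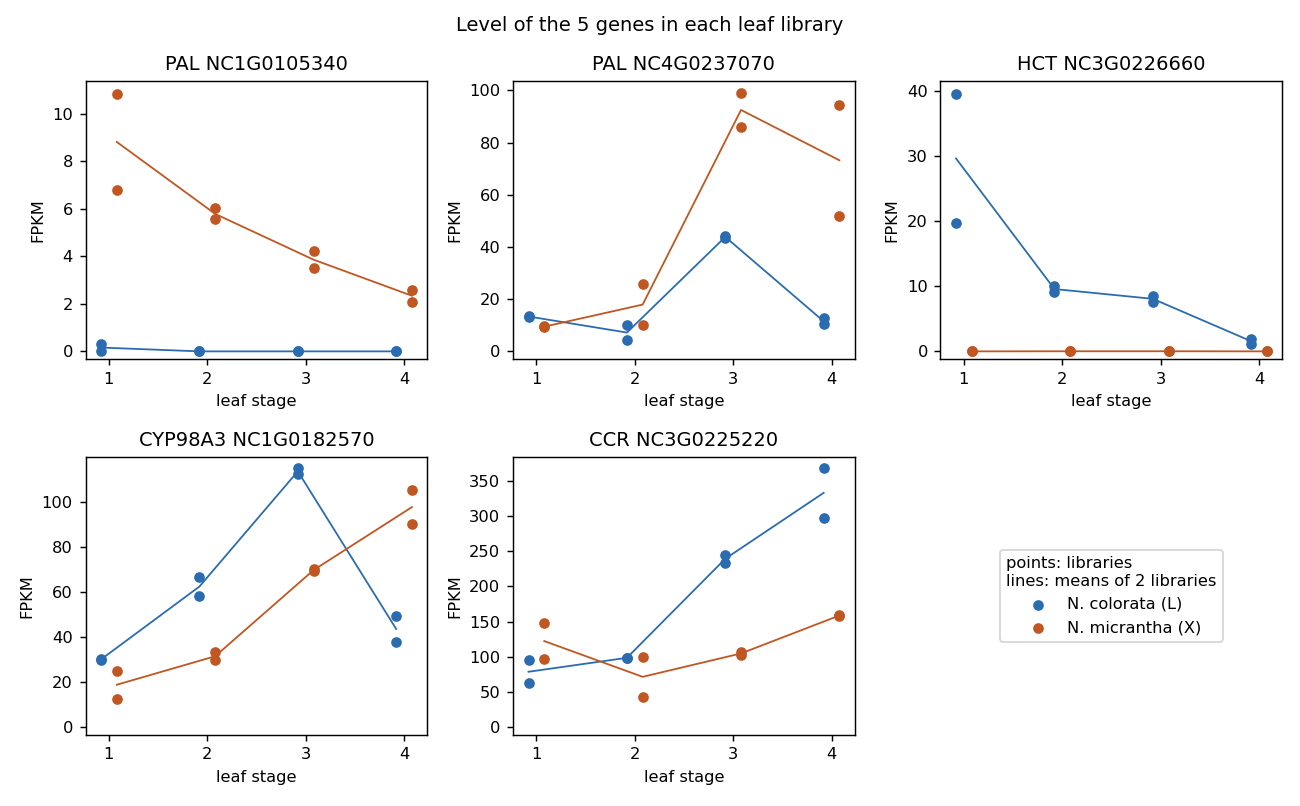
FPKM (vertical axis, linear) of the 5 genes in each library against leaf stage (horizontal axis); points are libraries, offset sideways by species, and lines join the means of 2 libraries. *PAL* NC1G0105340 lies between 2.08 and 10.8 in X-species and at 0 in 7 of 8 L libraries, *HCT* NC3G0226660 lies between 1.16 and 39.5 in L-species and at or near 0 in X-species, and the species lines of *CYP98A3* cross between stages 3 and 4.

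The *PAL* gene NC1G0105340 was read almost solely in X-species. Its FPKM was 10.8 and 6.80 in the X1 libraries, 5.56 and 6.02 in X2, 4.23 and 3.50 in X3 and 2.61 and 2.08 in X4. In L-species it was 0.320 in L1 replicate 1 and 0 in the other 7 libraries. All X libraries were thus above all L libraries, and within X-species the groups at the 4 stages did not overlap, in falling order from X1 to X4. The values rest on 158 and 82 reads in X1 and on 35 and 27 in X4, against 8 reads in the single L library with any.

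At stage 1 the pooled reads, set against the library totals, were 52.0-fold higher in X-species (exact 95% interval 25.9 to 121.7, counting error only). At stages 2, 3 and 4 the L libraries held no read, and with 3 reads over the group as the floor the X level was at least 85.2-fold, 49.9-fold and 31.7-fold higher. The log2 fold changes, drawn toward 0 by the pseudocount at these low levels, were 3.06 ± 0.20 (SE), 2.76, 2.28 and 1.74 at stages 1 to 4, with limma adjusted p of 2.1e-07, 5.5e-07, 2.7e-06 and 2.2e-05. NC1G0105340 passed the filter only through X-species, so these p-values are no separate support for the species difference. From X1 to X4 the mean fell 3.77-fold, from 8.82 ± 2.86 to 2.34 ± 0.373 FPKM (SD, n = 2), a log2 fold change of −1.53 ± 0.20 (limma adjusted p = 1.1e-04). This call was lost when only the 4 libraries compared were fitted (log2 fold change −1.53, limma adjusted p = 0.053). No single step between successive stages was called for it in X-species, with log2 fold changes of −0.50, −0.48 and −0.54, where 1.62%, 11.5% and 14.0% of all genes were called.

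NC1G0105340 is a short gene model of 486 bases, as recovered from the FPKM values. The other *PAL* member, NC4G0237070, has 2154 bases. Among the genes of the study's list for *PAL* activity, the one closest in pattern to NC1G0105340 was NC4G0137850, also a short model with 708 bases (Pearson r 0.974 over the 16 libraries, whose species difference both share).

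The second *PAL* gene, NC4G0237070, was expressed in both species and rose in both as the leaf reached the surface. In L-species its FPKM was 13.1 and 13.6 in L1, 10.01 and 4.39 in L2, 43.3 and 44.4 in L3, and 12.7 and 10.3 in L4. In X-species it was 9.31 and 9.60 in X1, 10.1 and 25.8 in X2, 98.8 and 86.1 in X3, and 51.9 and 94.5 in X4. The species were close at stage 1, and at stage 4 the X libraries stood far above the L libraries. The X2 libraries lay apart from each other, one near X1 and the other above all L libraries but those of L3.

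In both species the step from stage 2 to stage 3 was called, with a log2 fold change of 2.54 ± 0.40 (SE) in L-species (limma adjusted p = 8.4e-04) and 2.44 ± 0.40 in X-species (limma adjusted p = 0.0014). These are rises in the mean of 6.09-fold and 5.16-fold; at this step 14.0% of all genes were called in L-species and 11.5% in X-species. The call in X-species was lost on the 4 compared libraries alone (limma adjusted p = 0.11). From stage 3 to stage 4 the level in L-species fell by 1.85 on the log2 scale (limma adjusted p = 0.0044). In X-species the same step gave −0.39 with a 95% interval of −1.27 to 0.48 and was not called. X4 was 7.74-fold above X1 in the mean (log2 fold change 2.77 ± 0.40, limma adjusted p = 1.9e-04), while L4 against L1 gave −0.21 (95% interval −1.08 to 0.67, not called).

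Between the species NC4G0237070 differed by −0.46 at stage 1 (95% interval −1.33 to 0.42), which was not called. At stages 2 and 3 the log2 fold changes were 1.16 ± 0.40 and 1.06 ± 0.40, with limma adjusted p of 0.034 and 0.045. At stage 4 the difference was 2.51 ± 0.40 (limma adjusted p = 2.3e-04), a 6.36-fold higher mean in X-species (73.2 ± 30.1 against 11.5 ± 1.70 FPKM, SD, n = 2). The stage 2 call rested on 2 libraries, with 0.53 left without X2 replicate 2 and 0.65 without L2 replicate 2 (adjusted p = 0.31 and 0.29 by limma), and it was also lost with no filter and on the compared libraries alone. The stage 3 call was lost in 10 of the 16 fits that left out 1 library, with values of 0.96 to 1.15, and also with pseudocount 0.1, with no filter, with the replicate block and by voom (limma's count-based weighting) on the recovered reads.

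The 2 *PAL* members thus moved in opposite directions from stage 1 to stage 4 in X-species, by −1.53 and 2.77. In L-species neither was called over the same span, and NC1G0105340 was at or near 0 there throughout. The order of the group means for NC4G0237070 was X3, X4, L3, X2, L1, L4, X1 and L2. The ranges of X3 and X4, of X2 and L1, and of X1 and L2 overlapped.

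The *HCT* gene NC3G0226660 showed the reverse species pattern, with reads almost solely in L-species. Its FPKM was 19.7 and 39.5 in L1, 10.1 and 9.06 in L2, 8.55 and 7.59 in L3, and 1.96 and 1.16 in L4. In X-species it was 0.0315 in X2 replicate 1 and 0.0345 in X3 replicate 1, from 3 reads each, and 0 in the other 6 libraries. All L values lay above all X values, and the 4 L groups followed each other downward with no overlap.

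Set against the library totals, the pooled L1 reads (8287) were at least 1595-fold above X1, which held none. At stages 2 and 3, with 3 reads in X-species, the ratios were 586 (exact 95% interval 200.3 to 2843) and 461 (158 to 2240). At stage 4 the L level was at least 84.9-fold higher. The log2 fold changes were −4.86 ± 0.26 (SE), −3.38, −3.15 and −1.34 at stages 1 to 4, with limma adjusted p of 3.2e-08, 7.3e-07, 1.3e-06 and 9.5e-04. NC3G0226660 passed the filter only through L-species, so these p-values are likewise no separate support for the species difference. In L-species the mean went from 29.6 ± 14.0 FPKM at stage 1 to 1.56 ± 0.571 at stage 4 (SD, n = 2), 19.0-fold lower (log2 fold change −3.52 ± 0.26, limma adjusted p = 5.5e-07). Both the first step (−1.46, limma adjusted p = 0.015, where 1.89% of all genes were called) and the last (−1.84, limma adjusted p = 2.4e-04, where 16.2% were called) were called in L-species, and the middle one was not (−0.22). The first of these calls was lost with pseudocount 0.1 (−1.54), on the compared libraries alone, and without L1 replicate 2 (−0.97) or L2 replicate 2 (−1.39). The gene model is 3032 bases long. All 6 other genes listed for *HCT* activity also stayed below the filter level of 1 FPKM in all X libraries. The highest of them there, NC2G0056720 at 0.751, reached only 0.669 in L-species. The share of all genes below that level in X-species was not computed.

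*CYP98A3* (NC1G0182570) was expressed in every library and changed species order between stages 3 and 4. In L-species its FPKM was 29.9 and 30.2 in L1, 58.1 and 66.6 in L2, 114.9 and 112.1 in L3, and 49.4 and 37.6 in L4. In X-species it was 12.6 and 25.0 in X1, 33.2 and 29.6 in X2, 70.2 and 69.1 in X3, and 90.0 and 105.3 in X4. The L libraries were the higher at stages 1, 2 and 3 with no overlap, and the X libraries were the higher at stage 4, also with no overlap. The highest group was L3 and the lowest X1; of the neighbours in the order L3, X4, X3, L2, L4, X2, L1 and X1, only X2 and L1 overlapped.

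The log2 fold changes of *CYP98A3* at stages 1 to 3 were −0.72 ± 0.24 (SE), −0.97 ± 0.24 and −0.70 ± 0.24, with limma adjusted p of 0.028, 0.0069 and 0.032. They passed the p threshold but not the fold threshold and were not called. At stage 4 the difference was 1.16 ± 0.24 (limma adjusted p = 0.0018), a mean of 97.6 ± 10.8 in X4 against 43.5 ± 8.30 FPKM in L4 (SD, n = 2). X4 was 5.20-fold above X1 (log2 fold change 2.39 ± 0.24, limma adjusted p = 1.6e-05), with the step from stage 2 to 3 called (1.13, limma adjusted p = 0.0068). In L-species the level fell by 1.38 on the log2 scale from stage 3 to stage 4 (limma adjusted p = 0.0013), and L4 against L1 gave 0.51 (95% interval −0.03 to 1.04), which was not called. The threshold of fold decided several of these calls, since the value was −1.19 at stage 1 without X1 replicate 2, −1.06 and −1.05 at stage 2 without L2 replicate 1 and X2 replicate 1, and 0.96 at stage 4 without L4 replicate 2. The L2 against L1 step of 1.03 (limma adjusted p = 0.048) was lost in 12 of the 16 fits that left out 1 library.

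*CCR* (NC3G0225220) was the most abundant of the 5 genes in the mean over all libraries, at 150.8 FPKM. In L-species its FPKM was 95.2 and 62.1 in L1, 98.3 and 98.6 in L2, 244.8 and 234.0 in L3, and 298.1 and 368.3 in L4. In X-species it was 96.2 and 148.3 in X1, 43.4 and 99.4 in X2, 102.1 and 107.3 in X3, and 158.0 and 159.3 in X4. Both X libraries were above both L libraries at stage 1, by a narrow margin (96.2 against 95.2 for the nearest), and the species overlapped at stage 2. At stages 3 and 4 all L libraries were above all X libraries.

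*CCR* rose 4.24-fold in the mean from L1 to L4 (log2 fold change 2.09 ± 0.33 (SE), limma adjusted p = 1.8e-04), with the step from stage 2 to 3 called (1.27, limma adjusted p = 0.013), a call lost without either L2 library or L3 replicate 1 (1.24 to 1.27). X4 against X1 gave 0.41 (95% interval −0.31 to 1.13) and was not called. The species differences were 0.63 and −0.57 at stages 1 and 2, neither called, and −1.19 ± 0.33 and −1.06 ± 0.33 at stages 3 and 4 (limma adjusted p = 0.010 and 0.017). The mean at stage 4 was 333 ± 49.7 FPKM in L-species and 159 ± 0.917 in X-species (SD, n = 2). The stage 3 value was −0.92 under median-ratio scaling and −1.15 without X3 replicate 1 (limma adjusted p = 0.053). The stage 4 call was lost without L4 replicate 2 (−0.91), X4 replicate 1 (−1.05) or X4 replicate 2 (−1.06), and at stage 2 the value went from 0.01 without X2 replicate 1 to −1.16 without X2 replicate 2, where it was called.

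**Figure D2:**
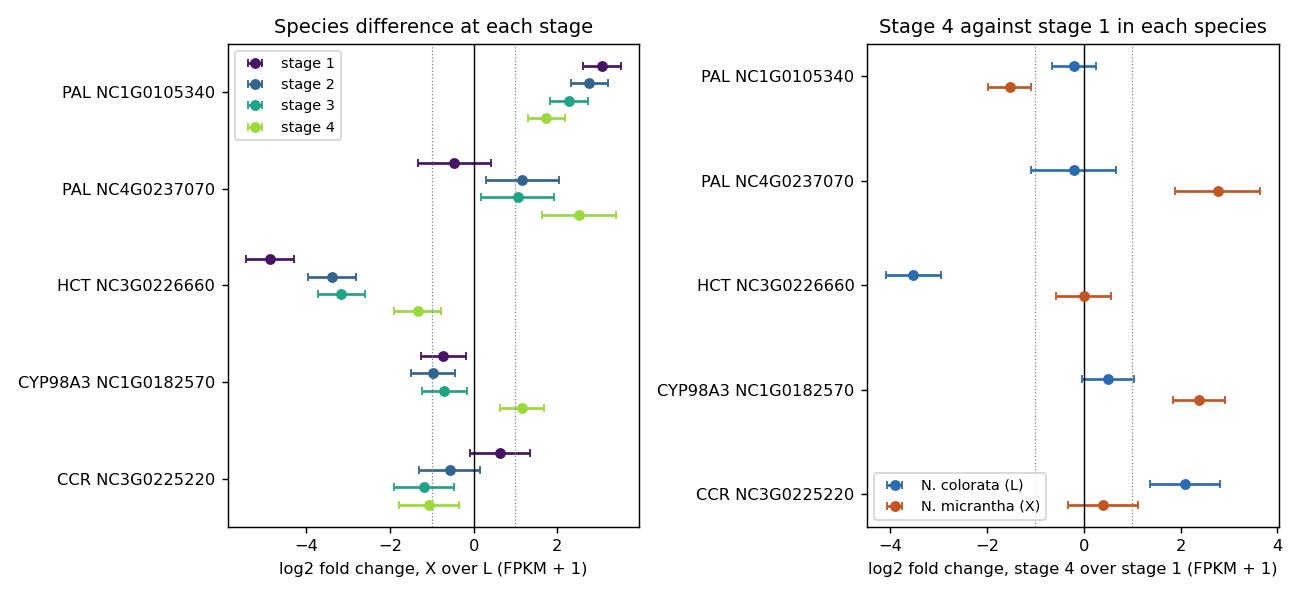
Log2 fold changes on the FPKM + 1 scale (horizontal axes) of the 5 genes (vertical axes), X over L at each stage (left) and stage 4 over stage 1 in each species (right); bars are 95% intervals from limma, and dotted lines mark the fold threshold of 1. The left panel shows *PAL* NC1G0105340 above 0 and *HCT* NC3G0226660 below 0 at all stages, and the right panel shows *PAL* NC4G0237070 and *CYP98A3* raised in X-species (2.77 and 2.39) where L-species gave −0.21 and 0.51.

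Over the whole span from stage 1 to stage 4, 3 of the 5 genes were called in X-species (21.9% of all genes were called) and 2 of 5 in L-species (35.0%). No gene of the 5 was called in both, where 14.3% of all tested genes were. NC1G0105340 had 8 reads over all L libraries and NC3G0226660 had 6 over all X libraries. For these genes a call in both species was out of reach. These spans and the species comparisons at stages 1 and 4 use the same libraries. The species by stage interaction (the stage 4 species difference less the one at stage 1) was called for 5 of 5 genes, where 24.9% of all genes were called. It was 2.97 ± 0.57 (SE) for *PAL* NC4G0237070 and 1.88 ± 0.35 for *CYP98A3*, with limma adjusted p of 0.0025 and 0.0020. For *CCR* it was −1.69 ± 0.47 (limma adjusted p = 0.016), and this call was lost without L1 replicate 2 (−1.38), L4 replicate 2 (−1.53) or X1 replicate 2 (−1.38).

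For the other 2 genes the interaction is on a scale on which one species sits at or near 0. It was −1.33 ± 0.29 for *PAL* NC1G0105340 and 3.52 ± 0.37 for *HCT* NC3G0226660, with limma adjusted p of 0.0050 and 6.1e-05, and it mirrors the fall in the species that had reads. For NC1G0105340 the value was −0.80 with pseudocount 0.1 and 0.01 by voom on the recovered reads, with limma adjusted p of 0.43 and 1.00, so the call did not hold on the ratio scale. For NC3G0226660 it was 4.23 by voom (limma adjusted p = 0.051).

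The list for *PAL* activity holds 4 genes besides the 2 members, all called between the species by the study on these samples. Summed over the 6 genes, the FPKM was 51.1 to 204.5 in L-species (median 87.0) and 165.8 to 359.7 in X-species (median 301.9). Among the L libraries, those of L3 (204.5 and 182.0) fell within the X range and the rest lay below it. The largest share came from NC9G0172060, with 59.5 to 89.1% of the sum in L-species and 32.1 to 93.0% in X-species. NC1G0105340 made up 1.10 to 3.02% of the sum in X-species. NC4G0237070 made up 2.59% at its lowest in X-species and 51.4% at its highest, the latter in X4 replicate 2.

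NC9G0172060 was 69.9 and 71.2 FPKM in L1, 79.6 and 60.8 in L2, 149.3 and 124.1 in L3, and 32.6 and 36.0 in L4. In X-species it was 331.4 and 278.1 in X1, 180.6 and 268.5 in X2, 216.3 and 214.8 in X3, and 91.6 and 59.1 in X4. Its X libraries were above the L libraries of the same stage throughout. The log2 fold changes were 2.09, 1.65, 0.66 and 1.08 at stages 1 to 4, called at all but stage 3, with the stage 4 call lost without X4 replicate 1 (0.77). It fell by 2.03 from X1 to X4 (limma adjusted p = 4.1e-05), while the member NC4G0237070 rose. NC9G0172060 thus stood with the member NC1G0105340 in direction, at a far higher FPKM.

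The *PAL* gene NC10G0038430 ran from 0.461 to 27.7 FPKM in X-species, lowest in X1 and highest in X4, and from 2.56 to 12.8 in L-species, highest in L3. It was called higher in X-species at stage 4 (1.72, limma adjusted p = 0.0015) and rose by 3.64 from X1 to X4 (limma adjusted p = 1.1e-05), in the same direction as NC4G0237070. NC4G0137850 ranged from 0.581 to 6.69 FPKM in X-species and reached at most 0.152 in L-species. It was called higher in X-species at stages 1 to 3 (2.51, 1.85 and 1.56). Its stage 4 value of 0.88 was under the fold threshold but was 2.85 and called with pseudocount 0.1. NC4G0137850 passed the filter only through X-species, so these calls are no separate support for the species difference. NC10G0038440 did not pass the filter, with 0.101 to 0.908 FPKM in L-species and 0 in all X libraries. Of the 3 other tested genes, 1 was called higher and 2 lower in X4 than in X1, where 12.3% of all tested genes were called higher and 9.65% lower.

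**Figure D3:**
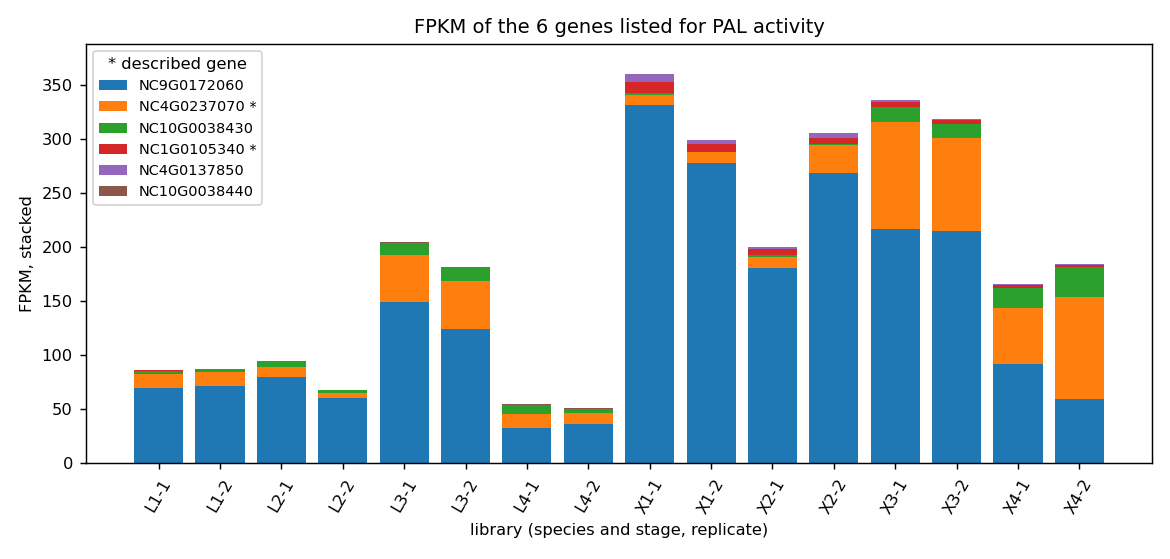
Stacked FPKM (vertical axis, from 0) of the 6 genes listed for *PAL* activity in each library (horizontal axis; group, then replicate); a star in the legend marks the 2 members. NC9G0172060 is the tallest segment in all libraries but X4 replicate 2, where NC4G0237070 with 94.5 FPKM exceeds it at 59.1.

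The list for *HCT* activity, likewise picked by the study on these samples, holds 6 genes besides NC3G0226660. The sum of all 7 was 38.3 to 106.1 FPKM in L-species (median 87.2) and 0.415 to 1.73 in X-species (median 1.32). Of the 5 other genes tested, 4, 4, 5 and 4 were called lower in X-species at stages 1 to 4 and 0 were called higher. All 5 passed the filter only through L-species, with maxima in X-species from 0 to 0.693 FPKM. A call higher in X-species was thus out of reach, and these counts are no separate support for the species difference. Among all tested genes 20.4%, 19.1%, 22.2% and 19.0% were called lower. The list's median log2 fold changes were −3.26, −3.64, −4.03 and −2.56.

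Within L-species the *HCT* genes had different courses. NC3G0226690, the most abundant, was 25.9 and 14.5 FPKM in L1, 44.1 and 50.1 in L2, 29.6 and 42.6 in L3, and 4.97 and 4.97 in L4. It reached at most 0.159 in X-species. NC13G0027400 ranged from 2.30 to 25.8 in L-species, lowest in L4, and from 0.0364 to 0.693 in X-species. NC2G0294100 was between 9.21 and 18.4 FPKM in all L libraries and had no read in any X library, and L4 against L1 gave −0.10 (not called). NC3G0226610 was 17.2 and 15.0 in L3, at most 2.73 in the other L libraries and at most 0.138 in X-species.

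NC2G0056750 ran opposite to the member NC3G0226660 in L-species. It was 0.160 and 0.0315 FPKM in L1, 1.00 and 0.199 in L2, 7.40 and 4.83 in L3, and 25.3 and 14.8 in L4, against at most 0.520 in X-species. It rose by 4.22 from L1 to L4 (limma adjusted p = 3.3e-07), while NC3G0226660 fell by 3.52. NC2G0056720 did not pass the filter; it reached 0.669 FPKM in L-species and 0.751 in X-species. Reads of near-identical copies could have been divided among the genes of this list and of the *PAL* list by the counting, which was not tested.

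**Figure D4:**
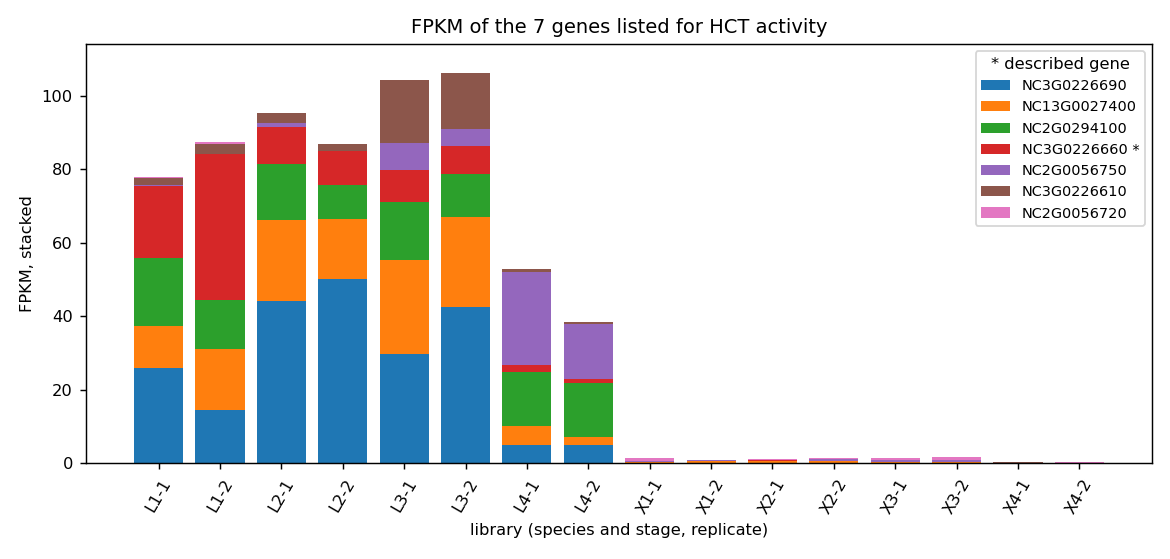
Stacked FPKM (vertical axis, from 0) of the 7 genes listed for *HCT* activity in each library (horizontal axis; group, then replicate); a star marks the member NC3G0226660. The bars sum to 38.3 to 106.1 in L-species and to 0.415 to 1.73 in X-species, and in L4 the segment of NC2G0056750 (25.3 and 14.8) is the tallest.

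Around these steps lie genes for arogenate dehydratase, which makes the phenylalanine that *PAL* uses, caffeate O-methyltransferase, which methylates caffeoyl units and related compounds, laccase, an oxidase known for joining monolignols, and chalcone synthase, which leads the same precursor into flavonoids. All of these lists come from the study's annotation of genes that it had called on these samples. For the 5 arogenate dehydratase genes, 0, 0, 0 and 1 were called higher in X-species at stages 1 to 4 and 2, 3, 2 and 3 lower, with medians of −0.81, −1.36, −0.92 and −1.23. At the same stages 7.56%, 6.18%, 6.57% and 12.3% of all tested genes were called higher and 20.4%, 19.1%, 22.2% and 19.0% lower. NC10G0065890, the most abundant, was not called at any stage (−0.36, −0.60, −0.92 and −0.95), though it was without L3 replicate 2 at stage 3 (−1.06) and without L4 replicate 2 or X4 replicate 2 at stage 4 (−1.15 and −1.04). NC1G0018290 was called lower at stages 2 to 4 (−1.59, −1.43 and −1.34), calls that were lost without L2 replicate 1 at stage 2 (−1.04), X3 replicate 2 at stage 3 (−1.27) and L4 replicate 1 or X4 replicate 1 at stage 4 (−1.11 and −1.20). NC1G0018290 rose in both species, from 15.5 to 89.0 FPKM between X1 and X4 and from 20.8 to 229 between L1 and L4, in the means (log2 fold change 2.55 and 3.39, both called, the first not on the compared libraries alone).

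Of the 10 other genes in the KEGG phenylpropanoid list, 6 were called higher in X-species at stage 4 and 0 lower, where 12.3% and 19.0% of all tested genes were called. At stages 1 to 3, 1, 2 and 2 were higher and 0, 2 and 1 lower, where 7.56%, 6.18% and 6.57% of all genes were higher and 20.4%, 19.1% and 22.2% lower. Under median-ratio scaling 0, 1 and 0 were lower. NC10G0145170, which the caffeate O-methyltransferase list also holds, was higher at stages 1, 2 and 4 (1.65, 1.28 and 1.43). NC4G0051810 was at 9.04 ± 2.46 FPKM in X4 and 0.484 ± 0.303 in L4 (SD, n = 2; log2 fold change 2.75, limma adjusted p = 1.6e-04). Its stage 2 value of −1.15 was called, but the call was lost under 14 of 23 alternatives, and the value was −0.37 without X2 replicate 2.

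Of the 6 tested caffeate O-methyltransferase genes, 3, 2, 2 and 4 were called higher in X-species at stages 1 to 4 and 2, 1, 1 and 2 lower, where 7.56%, 6.18%, 6.57% and 12.3% of all tested genes were called higher and 20.4%, 19.1%, 22.2% and 19.0% lower. The 2 most abundant were on the lower side, with NC10G0145150 at −1.01, −1.22, −1.09 and −1.02 and NC4G0240250 called lower at stages 1 and 4 (−1.32 and −1.45). The first was called at all 4 stages but sat near the fold threshold, and the calls at stages 1 and 3 were lost under median-ratio scaling (−0.82 and −0.83). It also lost the call without either replicate 1 library at stage 1 (−0.86 without L1 replicate 1, −0.77 without X1 replicate 1) and at stage 4 (−0.64 without L4 replicate 1, −0.83 without X4 replicate 1). For laccase, 5, 4, 3 and 2 of 14 tested genes were called higher in X-species and 2, 4, 6 and 5 lower, against the same shares of all genes. NC1G0158120 was lower at all stages (−3.29, −3.11, −4.97 and −2.44), and NC8G0215020, at 1545 ± 290.2 FPKM in L3 and 567 ± 48.5 in X3 (SD, n = 2), was lower at stage 4 (−4.15 ± 1.00 SE). Its stage 2 value of −2.65 was called, but the call was lost under 20 of 23 alternatives, and the value was −0.81 without X2 replicate 1. From X1 to X4, 8 of the 14 laccase genes were called lower (9.65% of all genes) and 0 higher (12.3%). Under median-ratio scaling 7 were lower. Several of these calls, that of NC8G0215020 among them, were lost on the compared libraries alone, and another was lost under 16 of 23 alternatives. Over the same span 2 of the 5 members were called higher and 1 lower.

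Of the 5 chalcone synthase genes, 2 were called higher in X-species at each stage, and 0, 1, 3 and 3 were lower, where 6.18 to 12.3% of all tested genes were higher and 19.0 to 22.2% lower. NC12G0188480 was higher at all 4 stages (2.67, 1.30, 1.57 and 2.63), with means of 445 ± 70.7 FPKM in X1 and 76.3 ± 47.8 in L1 (SD, n = 2); the stage 2 call was lost without L2 replicate 1 (1.14) or X2 replicate 2 (1.03). NC12G0188430 was lower at stages 2 to 4 (−2.03, −4.17 and −2.65). It rose in both species, to 245 ± 28.5 FPKM in L4 and 40.6 ± 19.9 in X4. Scaling changed the all-gene split at stage 3 from 1194 higher and 4034 lower to 1736 and 3219.

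The patterns of the 5 genes over the libraries were unlike each other, and their pairwise Pearson r on log2(FPKM + 1) ran from −0.808 (NC1G0105340 with NC3G0226660) to 0.631 (NC4G0237070 with NC1G0182570). Each r is over 16 libraries that share species and stage and is a description. The gene most like each member among all tested genes was NC9G0147520 for NC1G0105340 (r 0.993), NC10G0046420 for NC4G0237070 (0.896), NC10G0167860 for NC3G0226660 (0.992), NC6G0258880 for NC1G0182570 (0.937) and NC5G0263440 for NC3G0225220 (0.946). Among the context lists the closest were NC10G0038430 for both NC4G0237070 (0.782) and *CYP98A3* (0.848), NC13G0027400 for NC3G0226660 (0.927) and the chalcone synthase gene NC12G0188420 for *CCR* (0.855). NC6G0258880 shared with *CYP98A3* the peak in L3 (66.9 FPKM in the mean) and the highest X level in X4 (39.4).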

How the data were processed

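Per the labels, the authors used CASAVA 1.8, fastp 0.20.0, HISAT2 2.1.0, HTSeq 0.7.2, Cufflinks 2.2.1 and DESeq; the paper's methods also name NGS QC Toolkit and a Trinity assembly. The source genome of the gene IDs is not given in the sources used here. The deposited values are FPKM for 31475 genes in 16 libraries, computed by the authors from reads counted on genes. Groups and replicate numbers came from the sample titles. Whole reads, gene lengths and library totals were recovered from the FPKM: 100.00% of the values above 0 were whole within 0.001 reads. In simulated reads, 16 of 16 library totals and 98.22% of 23485 genes came out exactly. Reads per gene are fewer in X-species (median of 18 over all genes and libraries, against 61 in L-species). The exact intervals on ratios of pooled reads cover counting error only. The intervals of log2 fold changes come from limma and use the spread between libraries.

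Limma 3.58.1 in R 4.3.3 was fitted to log2(FPKM + 1) with 1 mean for each of 8 groups and a variance trend, without covariates, and p-values were adjusted by Benjamini-Hochberg over 18160 genes. It replaces the authors' count test because the table holds FPKM. It was also run on simulated reads with a fixed spread shared by all genes, a simpler setting than these libraries. No result here rests on that run. With 2 libraries a group, all groups share 1 estimate of spread. The libraries are pools that may share plants, so p-values measure the spread between pools and not between plants. The 5 genes and all lists were chosen with earlier results of these data known. Named besides the members were all genes listed for *PAL* and *HCT* activity, the 2 with the highest mean FPKM of each other list, and the most alike gene to each member. Replicate numbers did not pair the samples: same-numbered deviations correlated at −0.149, −0.492, −0.013 and −0.126 between the species at stages 1 to 4. No replicates were near-identical. Alternatives were pseudocount 0.1, no filter, median-ratio scaling, a filter keeping genes detected in both species, the replicate block, only the libraries compared, voom on recovered reads and leaving out each library. Python 3.11.15 with scipy 1.17.1 and matplotlib 3.10.9 was used for the rest. No columns were unmapped. No coordinates or sequences of these IDs were used here.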

Additional observations from a re-analysis of the deposited data

Results flagged for a closer look

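The change from stage 1 to stage 4 passed the interaction test between the species for each of the 5 genes in limma over all genes, for 4 of 5 with pseudocount 0.1 and for 3 of 5 by voom on the recovered reads. Of the 18160 genes tested, 4527, 4527 and 4070 were called in these fits. X-species minus L-species, on the log2 scale, the change was −1.33 for *PAL* NC1G0105340, 2.97 for *PAL* NC4G0237070, 3.52 for *HCT* NC3G0226660, 1.88 for *CYP98A3* NC1G0182570 and −1.69 for *CCR* NC3G0225220. NC1G0105340 and NC3G0226660 have 1 species at or near 0 reads, and voom ended both calls (0.01 and 4.23); NC1G0105340 was also not called with pseudocount 0.1 (−0.80). The call of *CCR* was lost without L1 replicate 2 (−1.38), L4 replicate 2 (−1.53) or X1 replicate 2 (−1.38).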

How the results depend on the processing

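Across the 5 genes and 8 contrasts, 861 of 899 values under an alternative kept direction and side of the threshold, 33 lost the call, 4 gained it and 1 turned direction; 27 of the 40 results had no change. For NC1G0105340, X4 against X1 was −1.53 when fitted on the 4 libraries compared alone, and the interaction was −0.80 with pseudocount 0.1 and turned to 0.0054 by voom. For NC4G0237070, stage 2 was 1.16 with no filter and on the 4 libraries compared alone, and stage 3 was 1.07 with pseudocount 0.1, 1.06 with no filter, 1.06 with the replicate block and 1.07 by voom, all without the call. The interaction of NC3G0226660 was 4.23 by voom, and *CCR* at stage 3 was −0.92 under median-ratio scaling. The causes were not tested.

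Leaving out 1 library at a time gave 0.53 to 1.796 for NC4G0237070 at stage 2, 0.96 to 1.15 at stage 3 and 0.91 to 1.23 for the mean of the 4 stages (1.07 in all libraries). For *CYP98A3* the range was −1.19 to −0.26 at stage 1, −1.06 to −0.87 at stage 2 and 0.96 to 1.35 at stage 4. For *CCR* it was −1.16 to 0.0138 at stage 2, −1.22 to −1.15 at stage 3, −1.21 to −0.91 at stage 4 and −2.00 to −1.38 for the interaction.

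With the replicate block, 3 of 5 genes were called at stage 3 in place of 4, where 5218 of 18160 genes were called in place of 5228. Member calls on steps between stages were 8 in place of 9, and the member counts of the other contrasts held. All genes called at the steps 1 to 2, 2 to 3 and 3 to 4 were 275, 2057 and 2509 in X-species (main fit 294, 2082 and 2534). In L-species they were 307, 2541 and 2911 (main fit 343, 2547 and 2934). With the X numbers crossed, added after seeing the data, 2, 3, 4 and 5 genes were called at stages 1 to 4 and 5095, 4606, 5241 and 5691 of all genes; with the X4 numbers crossed, X4 against X1 gave 3 and 3982. Over genes detected in both species, NC1G0105340 and NC3G0226660 drop out, and 0, 1, 2 and 3 members were called at stages 1 to 4. Of the smaller set of genes kept by that filter, 3284, 2895 and 3474 were called at stages 1 to 3. In the main fit 5079, 4597 and 5228 of 18160 were called. In fits on the compared libraries alone, 0 genes were called for X2 against X1 and for L2 against L1 and 662 for X3 against X2, against 294, 343 and 2082. Without the filter L2 against L1 gave 222. The mean of the 4 stages has no smaller fit. In X-species the values of 2 genes rest on few reads, NC1G0105340 with 27 to 158 a library and NC3G0226660 with 0 to 3. What depth adds to their species differences was not tested.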
